A study of Mus musculus with 6 samples.

Results

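The genes described here are 10 that control the passage of a cell from G1 into S phase: the D-type cyclins Ccnd1, Ccnd2 and Ccnd3, the kinases Cdk4 and Cdk6, the transcription factors E2f1, E2f2 and E2f3, and the pocket proteins Rb1 and Rbl1. They were chosen by name, with earlier results of these data known, among 19938 genes of the arrays. Each of those genes carries a probe set with exactly 1 gene symbol, and all 10 were measured. Ccnd2 and Cdk6 were higher in cells lacking Dusp6, and E2f1, E2f2, E2f3 and Rbl1 were lower. The results for E2f3 and Rbl1 depended on the processing: they passed in 12 and 8 of 14 alternatives. Ccnd1, Ccnd3, Cdk4 and Rb1 did not pass the test.

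The study measured total RNA of mouse pre-B cells on Affymetrix arrays. The cells had been transformed with BCR-ABL1, a constitutively active kinase made by the Philadelphia translocation and a driver of acute lymphoblastic leukaemia (ALL). One group was Dusp6 WT (3 arrays) and the other Dusp6 KO (3 arrays). Both groups share the BCR-ABL1 oncogene and the C57Bl/6-SV129j background, and the comparison asks which transcripts differ without Dusp6, a phosphatase that inactivates ERK. The labels do not give the deleted part of Dusp6, the age of the mice, the vector that carried BCR-ABL1, or whether replicate arrays represent separate animals or cultures. The p-values therefore measure the spread among these arrays alone, and that spread may be technical.

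In G1, growth signals raise the D-type cyclins, which bind and activate CDK4 or CDK6. These kinases phosphorylate Rb and its relatives p107 and p130, the pocket proteins that hold E2F factors in check, and the released E2Fs switch on genes for DNA synthesis. Several E2F genes and the p107 gene are themselves E2F targets. In precursor B cells, cyclin D3 is known to be needed for the expansion of pre-B cells, and CDK6 is a main D-cyclin partner in blood cells.

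The genotype labels matched the targeted gene. Dusp6 signals were 12.36, 12.46 and 12.49 on the WT arrays and 9.04, 9.06 and 9.15 on the KO arrays, on the log2 scale. Arrays of one genotype correlated at 0.996 to 0.998 and arrays of different genotypes at 0.987 to 0.989. Precursor B cell genes were bright on all arrays, with a median log2 signal of 13.25 to 13.28 in WT and 13.00 to 13.08 in KO over 13 markers, among them Igll1, Cd24a and Cd79b, the 3 brightest. Of these markers 1 (Rag1) rose and 6 (Vpreb1, Vpreb2, Rag2, Dntt, Il7r and Blnk) fell, led by Dntt at −1.42. That is 7.69% and 46.2%, against 9.66% and 10.2% of all genes. The median signals of markers of other cell types lay below the median of all genes (8.60 to 8.65 over the 6 arrays). They were 7.61 to 7.62 in WT and 7.61 to 7.71 in KO for 10 myeloid genes, and 7.33 to 7.42 in WT and 7.57 to 7.66 in KO for 7 T cell genes. They were 7.96 to 8.02 and 7.90 to 8.01 for 4 erythroid genes, and 8.13 to 8.31 and 8.14 to 8.24 for 7 stromal genes. The brightest were Lyz2, Cebpe and Elane (up to 9.03 on average in WT), Cd3e, Cd8a and Cd4 (up to 8.44), Epor, Alas2 and Gata1 (up to 8.28), and Col1a1, Col1a2 and Col3a1 (up to 9.35). Of all these markers, the myeloid gene Lyz2 rose by 0.70, the T cell gene Cd8b1 by 0.23 and the stromal gene Fn1 by 0.22, and the others did not pass. The part of such differences in the results below was not tested.

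Of the 10 genes, 2 rose and 4 fell (limma, adjusted p under 0.05), whereas 9.66% of all genes rose, 10.2% fell and 19.8% changed in either direction. The 10 were chosen with earlier results of these data known, so this contrast is a description and not a test. The median log2 difference of the 10 was −0.09, against 0.00 over all genes. The WT and KO values did not overlap for 8 of the 10 genes, compared with 35.7% of all genes. The median signal of the 10 was 12.36 to 12.41 in WT and 12.22 to 12.29 in KO, far above that of all genes. Brighter genes passed more often: 1926 genes rose and 2028 fell over all, and 1769 and 2206 with genes below the median signal removed. The shares of all genes are thus not those of equally bright genes. All differences below are KO minus WT on the log2 scale, with limma's standard error (SE). The changes were small: the largest, that of Ccnd2, was 1.40-fold. In bulk RNA, fewer cells in a given cycle phase and less RNA per cell cannot be told apart.

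**Figure D1:**
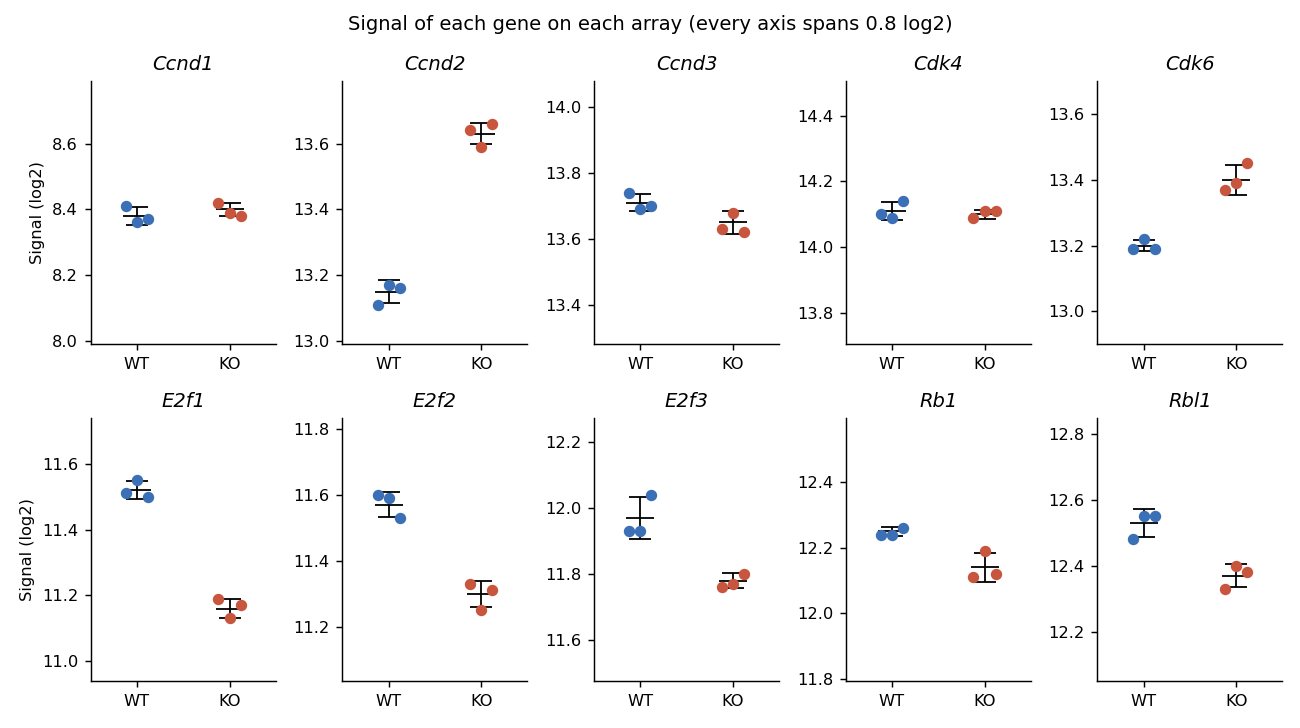
Log2 signal (vertical axis) of the 10 genes on the 3 Dusp6 WT (blue) and 3 Dusp6 KO (red) arrays; bars are the mean ± SD, and each axis spans the same log2 range around its gene. Ccnd2 shows the widest separation, and the WT and KO points of Ccnd1 and Cdk4 overlap.

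Among the D-type cyclins, which link growth signals to the cell cycle, Ccnd2 changed most. Its signals were 13.11, 13.17 and 13.16 on the WT arrays and 13.64, 13.59 and 13.66 on the KO arrays. All KO arrays lay above all WT arrays, with a gap of 0.427 between the nearest values. The difference was 0.48 ± 0.042 (SE), or 1.40-fold with a 95% confidence interval of 1.31 to 1.49 (limma adjusted p = 3.4e-05). It stood at the 97.5th percentile of the differences of all genes.

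Ccnd3, the D-type cyclin that pre-B cells need, gave 13.74, 13.69 and 13.70 in WT and 13.63, 13.68 and 13.62 in KO. Every KO value was below every WT value, but the nearest values differed by only 0.008. The difference of −0.07 ± 0.042 (SE) did not pass (limma adjusted p = 0.33), and its 95% confidence interval of −0.16 to 0.03 leaves out a change as large as that of Ccnd2.

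Ccnd1, the D-type cyclin of many non-blood tissues, had signals of 8.41, 8.36 and 8.37 in WT and 8.42, 8.39 and 8.38 in KO. The groups overlapped, and the difference was 0.02 with a 95% confidence interval of −0.08 to 0.11 (limma adjusted p = 0.84). These signals lay just below the median of all genes on the arrays, and whether they exceed background was not tested.

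Of the catalytic partners of the D-type cyclins, Cdk6 passed the test and Cdk4 did not. Cdk6 gave 13.19, 13.22 and 13.19 in WT and 13.37, 13.39 and 13.45 in KO, without overlap. It rose by 0.20 ± 0.043 (SE), or 1.15-fold (95% confidence interval 1.07 to 1.23, limma adjusted p = 0.0093). Cdk4 gave 14.10, 14.09 and 14.14 in WT and 14.09, 14.11 and 14.11 in KO. Its groups overlapped, and the difference of −0.01 had a 95% confidence interval of −0.10 to 0.08 (limma adjusted p = 0.95). The Cdk4 signals lay near the highest value on the arrays (14.8).

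The activating E2F factors, which drive transcription of S phase genes, fell together. E2f1 gave 11.51, 11.55 and 11.50 in WT and 11.19, 11.13 and 11.17 in KO. All KO values lay at least 0.308 below all WT values. The difference was −0.36 ± 0.041 (SE), a 1.28-fold decrease (limma adjusted p = 0.00021), at the 3.2nd percentile of all genes.

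E2f2, which has a role in limiting the expansion of lymphocytes besides its activator role, gave 11.60, 11.59 and 11.53 in WT and 11.33, 11.25 and 11.31 in KO. The groups did not overlap, and the difference was −0.27 ± 0.044 (SE), a 1.21-fold decrease (limma adjusted p = 0.0019).

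E2f3 was measured by 2 probe sets. The brighter one, 10408477, gave 11.93, 11.93 and 12.04 in WT and 11.76, 11.77 and 11.80 in KO. The groups did not overlap, and the difference was −0.19 ± 0.046 (SE), a 1.14-fold decrease (limma adjusted p = 0.017). The other, 10408475, gave 10.84, 10.86 and 10.94 in WT and 10.63, 10.83 and 10.83 in KO. There the difference was −0.11 and did not pass when every probe set was tested (limma adjusted p = 0.37, against 0.047 for the brighter one). The E2f3 call was lost with the mean of both probe sets (−0.15, adjusted p = 0.068) and without WT replicate 3 (−0.15, adjusted p = 0.068).

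The pocket proteins bind E2Fs and repress their targets until they are phosphorylated. Rbl1, which encodes p107, gave 12.48, 12.55 and 12.55 in WT and 12.33, 12.40 and 12.38 in KO. The groups did not overlap, and it fell by 0.16 ± 0.044 (SE), a 1.12-fold decrease (limma adjusted p = 0.032). The call was lost without WT replicate 2 (limma adjusted p = 0.098), WT replicate 3 (0.11), KO replicate 1 (0.082) or KO replicate 3 (0.076). It was also lost when every probe set was tested (0.068) and with replicate number added to the model (0.051). The differences in these settings were −0.16 to −0.14.

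Rb1, the retinoblastoma gene, gave 12.24, 12.24 and 12.26 in WT and 12.11, 12.19 and 12.12 in KO. The KO values were lower without overlap, but the nearest values differed by only 0.049. The difference of −0.11 ± 0.042 (SE; 95% confidence interval −0.20 to −0.01) did not pass over all genes (limma adjusted p = 0.11). It passed when genes below the median signal were removed (adjusted p = 0.043) and with trend and robust options (0.035).

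**Figure D2:**
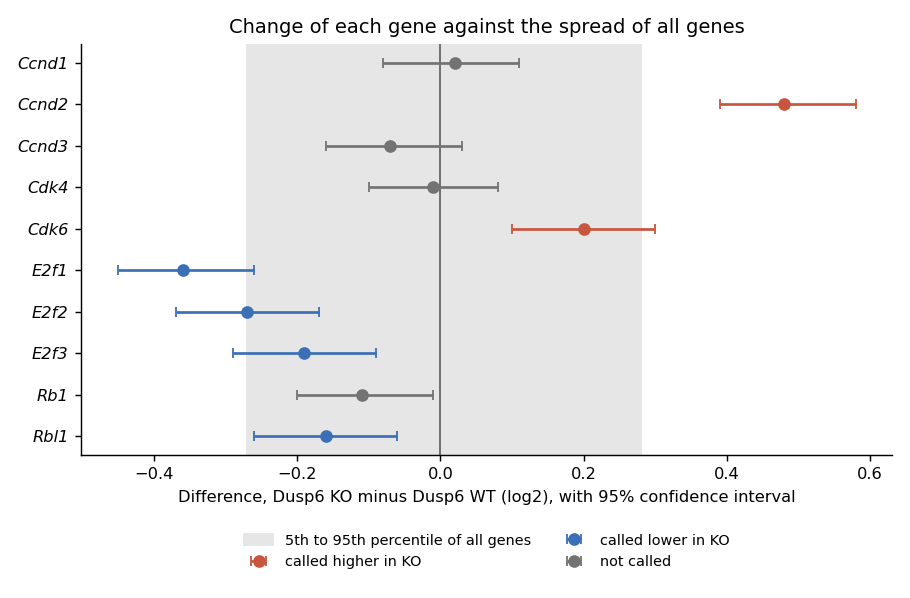
Log2 difference of each gene, Dusp6 KO minus Dusp6 WT (horizontal axis), with its 95% confidence interval; the grey band spans the 5th to 95th percentile of all genes (−0.27 to 0.28). The interval of Ccnd2 lies wholly above the band, those of E2f1, E2f2, E2f3 and Rbl1 lie below 0, as does that of Rb1, which was not called, and those of Ccnd1, Ccnd3 and Cdk4 include 0.

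Because p107 and E2F genes are known E2F targets, the starts of the genes were searched for the E2F consensus. The promoter windows of RefSeq (GRCm38.p6, 250 bases before to 50 bases after a start) held 7 of the 10 genes. The letters searched were TTTGGCGC, TTTCCCGC, TTTGCCGC and TTTCGCGC on both strands, with overlapping matches allowed. A match was found for Rbl1, E2f2 and E2f3, which all fell, and for none of the other 4 genes with a window (E2f1, Cdk4, Cdk6 and Ccnd3). E2f1, which fell most of the 10 genes, is thus among those without a match. However, the 1 start listed for it is not the one usually described. Sequence around other starts was not searched, so whether its usual promoter holds a match was not examined. Of all 32851 windows, 2.26% held a match. The stretches with a match are shown 5′ to 3′ on the strand of the gene, with the matched letters in capitals. Positions count from the first transcribed base as 1, and negative positions lie before it.
Rbl1, positions −150 to −1 (chr2:157204535-157204684, minus strand): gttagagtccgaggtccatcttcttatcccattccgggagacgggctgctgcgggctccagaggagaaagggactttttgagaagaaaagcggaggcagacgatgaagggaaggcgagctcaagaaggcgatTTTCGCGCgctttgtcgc
E2f3, positions −150 to −1 (chr13:29986064-29986213, minus strand): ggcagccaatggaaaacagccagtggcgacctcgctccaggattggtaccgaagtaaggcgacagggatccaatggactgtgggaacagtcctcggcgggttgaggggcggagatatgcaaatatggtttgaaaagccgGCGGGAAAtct
E2f2, positions 21 to 50 (chr4:136172294-136172323, plus strand): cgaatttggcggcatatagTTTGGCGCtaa

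The match lay at positions −18 to −11 for Rbl1, at −11 to −4 for E2f3 and at 40 to 47 for E2f2, so within 50 bases of the start in each. E2f2 and E2f3 each have another listed start whose window held none of these letters. Over the 15614 tested genes with a window, 3.48% held a match. The share was 6.88% of the 1598 genes that fell, 2.93% of the 1534 that rose and 3.11% of the 12482 that did not pass. These are descriptions of sequence, not of bound sites. Matches in the E2F genes and the p107 gene, known E2F targets, were likely in advance and say nothing about the decreases. The genes that fell include these and other E2F targets, and the shares were not compared among equally bright genes.

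Whether related genes changed by different amounts was examined on each array as the difference of the log2 signals of a pair. Only the change of that difference between genotypes is meaningful, since signals of different probe sets are not on a common scale. With 3 arrays against 3, the smallest p of an exact two-sided permutation test is 0.10, so no pair can pass. Of 8 pairs, 6 reached it (adjusted p = 0.13 over the 8 pairs). Ccnd2 minus Ccnd3 moved by 0.55, from −0.63, −0.52 and −0.54 on the WT arrays to 0.00, −0.09 and 0.04 on the KO arrays. Cdk4 minus Cdk6 moved by −0.20 and Ccnd1 minus Ccnd2 by −0.47, again without overlap.

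Ccnd1 minus Ccnd3 moved by 0.08. Within the E2Fs, E2f1 fell further than E2f3 by 0.17 and further than E2f2 by 0.09 on average, and neither pair overlapped between genotypes. E2f2 minus E2f3 (−0.08, exact p = 0.30) and Rb1 minus Rbl1 (0.05, exact p = 0.20) overlapped. The shifts of Ccnd2 against Ccnd3 and of Cdk6 against Cdk4 were larger than the spread between arrays, but no pair could pass. All shifts are made of the same signals as the differences of single genes above and add no separate support.

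**Figure D3:**
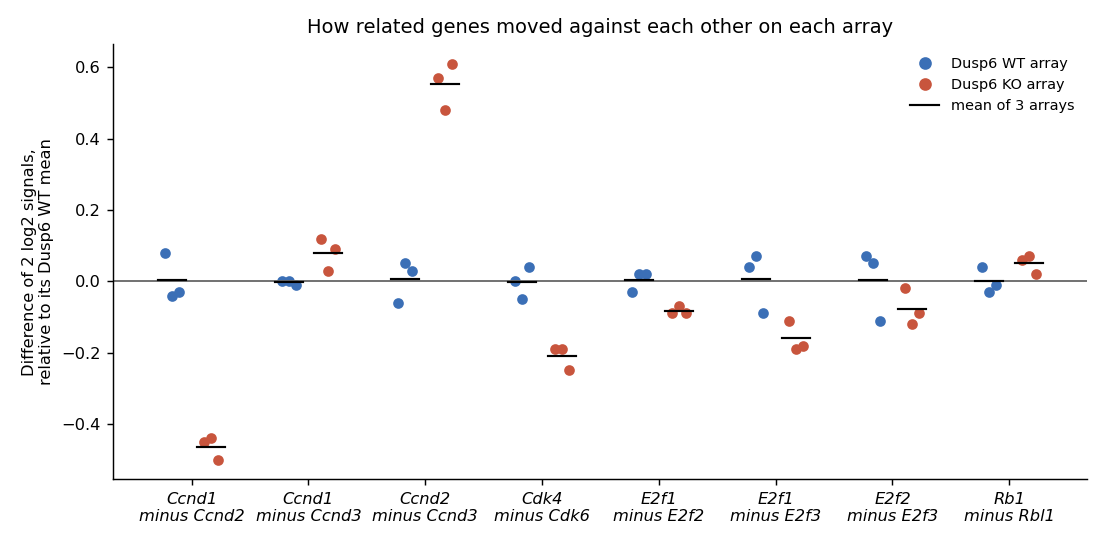
Difference of the log2 signals of 2 related genes on each array, shown relative to its Dusp6 WT mean (vertical axis), for 8 pairs; blue points are WT arrays, red points KO arrays, and black lines the means of 3 arrays. The KO points of Ccnd2 minus Ccnd3 lie about 0.55 above the WT points, whereas those of E2f2 minus E2f3 overlap them.

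The genes that E2Fs are known to switch on were lower as well. Of 30 measured E2F target genes, 22 fell and 1 rose (73.3% and 3.33%, against 10.2% and 9.66% of all genes), with a median difference of −0.22. This list was assembled with results on cell cycle genes of these data known. The largest decreases were those of Cdt1, which loads the replicative helicase (−0.40 ± 0.047, SE), and Orc1, a subunit of the origin recognition complex (−0.34 ± 0.041). Tyms, the thymidylate synthase, fell by 0.33, and so did Cdc45, a helicase cofactor (limma adjusted p from 0.00026 to 0.0015 for these 4). Ezh2, a histone methyltransferase and the gene that rose, was at 0.15 (limma adjusted p = 0.025). It lost its call without any 1 array except KO replicate 1. The list was not uniform: Rrm2, a subunit of ribonucleotide reductase, differed by 0.00, and Pcna, the replication clamp, by −0.13 (limma adjusted p = 0.053). An E2F match was present in 12 of the 27 E2F target genes with a window (44.4%, against 3.48% of tested genes with a window). The list holds known E2F targets, so a high share was likely in advance and says nothing about the decreases.

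Genes that act beside or just after the D-type cyclins included several that fell and none that rose in limma. Of 8 genes for cyclin E, cyclin A, CDK2 and their activators, 4 fell and 0 rose (6 and 1 at an unadjusted p under 0.05), with a median of −0.16. The share that fell was 50%, against 10.2% of all genes, and 9.66% of all genes rose. Ccne1, the cyclin that follows cyclin D, fell by 0.23 ± 0.042 (SE), from 12.05 ± 0.017 to 11.82 ± 0.043 (SD, n = 3). Ccne2 fell by 0.18, Cdc25a, the phosphatase that activates CDK2, by 0.18, and Skp2, which targets p27 for destruction, by 0.22.

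Of 14 other E2F, DP and DREAM complex genes, 3 fell and 0 rose in limma (6 and 0 at an unadjusted p under 0.05), with a median of −0.07. The share called was 21.4%, close to the 19.8% of all genes, of which 10.2% fell. E2f6, a repressor that lacks a pocket protein binding site, fell by 0.38 ± 0.060 (SE), with signals of 11.28, 11.27 and 11.38 in WT and 10.81, 10.99 and 10.98 in KO. Tfdp2, a DP partner that E2Fs need to bind DNA, fell by 0.36, and E2f7, a repressor that is itself an E2F target, fell by 0.26. Rbl2, the p130 gene and closest relative of Rbl1, was at 0.07 (limma adjusted p = 0.41).

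**Figure D4:**
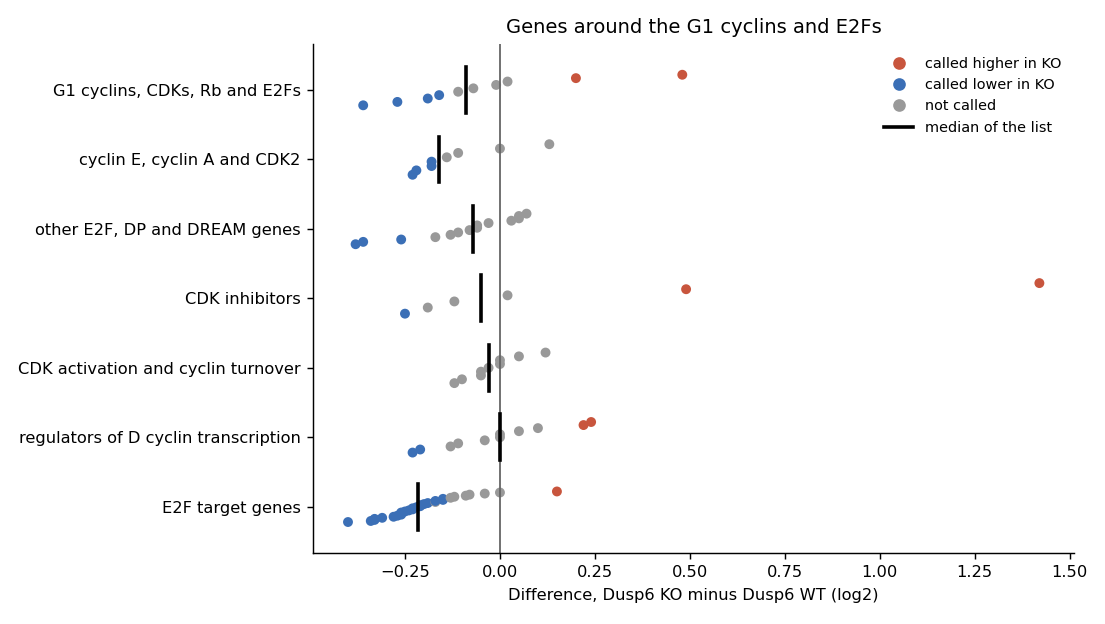
Log2 difference, Dusp6 KO minus Dusp6 WT (horizontal axis), of the 10 genes and of 6 lists of genes around them; each point is a gene, red points were called higher, blue points lower and grey points not called, and black bars are medians. The E2F target genes lie mostly below 0 with a median of −0.22, and Cdkn2a stands apart among the CDK inhibitors at 1.42.

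The CDK inhibitors that act directly on the kinases described above moved both ways. Of 6 measured, 2 rose and 1 fell (50% called, against 19.8% of all genes), and Cdkn1a was not analysed here. Cdkn2a, whose products are the CDK4 and CDK6 inhibitor p16 and the p53 activator p19Arf, gave 9.36, 9.44 and 9.43 in WT and 10.88, 10.69 and 10.91 in KO, a rise of 1.42 ± 0.062 (SE). The array signal was not split by product. Cdkn2b, another inhibitor of CDK4 and CDK6, rose by 0.49, and Cdkn2c, of the same INK4 family, fell by 0.25 (limma adjusted p = 0.0021).

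Genes that act on the D-type cyclins from upstream gave 2 that rose and 2 that fell of 11, with a median of 0.00. Thus 36.4% were called, against 19.8% of all genes. Stat5b and Stat5a, transcription factors that act downstream of BCR-ABL1 and can induce D-type cyclins, rose by 0.24 and 0.22. Foxo1, which restrains proliferation, fell by 0.21, and Bcl6, a repressor whose known targets include Ccnd2, fell by 0.23 (limma adjusted p = 0.0048), from a WT signal of 8.54. Myc, another inducer of D-type cyclins, was at −0.04 (limma adjusted p = 0.66). Of 9 genes for CDK activation and cyclin turnover, 0 rose and 0 fell in limma (1 and 1 at an unadjusted p under 0.05), and the smallest p were those of Cdk7, a CDK-activating kinase (0.12, adjusted p = 0.071), and Usp2, a deubiquitinase of cyclin D1 (−0.12, adjusted p = 0.098). With the mean of all its probe sets, Cdk7 was at 0.20 and passed (limma adjusted p = 0.0065).

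For each of the 6 genes that passed, the genes with the most similar profile over the 6 arrays were found by the root mean square distance of their log2 signals, after subtraction of the WT mean. For E2f1 they were Zfp367 (distance 0.013), Stau2 (0.019) and Kif2c (0.023), and for E2f2 Cep89 (0.011), Thap4 (0.013) and Oser1 (0.017). For E2f3 the nearest was Cdc6 (0.019), which loads the replicative helicase and is in the E2F target list, followed by Cyb561a3 (0.021) and Dsel (0.022). For Rbl1 they were Utp14a (0.011), Wdhd1 (0.012) and Kdsr (0.016). Ccnd2 was nearest to Ivd (0.023), Trim24 (0.024) and Vps39 (0.024), and Cdk6 to Dcaf8 (0.015), Dcaf5 (0.015) and Dok3 (0.017). A profile of this kind holds the difference between genotypes, so genes with a difference of like size rank high.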

How the data were processed

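The authors deposited log2 signals, 1 for each probe set on each array, made with RMA and Partek 6.5 per the submitters' processing notes. The background setting and the genome build were not given in the sources used here. That the scale is log2 follows from the range of the values (3.23 to 14.8, array medians 8.38 to 8.42), and they were not normalized again. Arrays have no read depth: their number limits the precision, and the median standard error of a difference was 0.051.

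Of 35556 probe sets, 21789 carried 1 gene symbol, 1621 several and 12146 none in the platform annotation. The probe set with the highest mean over the 6 arrays represented a gene, which left 19938 genes. Genes were tested in R 4.3.3 with limma 3.58.1, using a linear model of genotype alone and eBayes, with Benjamini-Hochberg adjustment over all genes and calls at an adjusted p under 0.05. The procedure was tested on simulated data with 200 changed genes per run. It recovered 40.1% of changes of 0.25, 87.5% of 0.5 and 98.9% of 1 on the log2 scale. A gene that did not pass may therefore still differ by a small amount. In the data 3954 genes were called, far more than were changed in the simulation, so the recovered shares need not hold there. Pairs were compared with exact permutation tests (scipy 1.17.1).

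The members and lists were chosen with earlier results of these data known. All members are named. In the pathway lists, up to 4 called genes with the largest differences are named, or the 2 with the smallest p. In the marker lists, called genes and the 3 brightest are named. For similar profiles, the 3 nearest genes are given, leaving out members and symbols made of Gm and a number, ending in Rik or starting with LOC. Ezh2, Rrm2, Pcna, Rbl2 and Myc were named after their values were seen. Alternatives were another normalization, centring, filters on dim genes, other uses of probe sets, other eBayes options, a replicate block and leaving out each array.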

Additional observations from a re-analysis of the deposited data

How the results depend on the processing

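Over 14 alternatives, Ccnd2 (0.46 to 0.50), Cdk6 (0.17 to 0.22), E2f1 (−0.37 to −0.34) and E2f2 (−0.29 to −0.25) kept their direction and an adjusted p under 0.05 in each. E2f3 passed in 12 of 14, Rbl1 in 8 of 14, Rb1 in 2 of 14, Ccnd3 and Cdk4 in 0 of 14, and Ccnd1 in 0 of 13, since it lies below the median signal. Dusp6 stayed between −3.40 and −3.33. With any 1 array left out, 2 of the 10 genes rose and 2 to 4 fell, the 2 being without WT replicate 3, where E2f3 and Rbl1 were lost. Leaving out 1 array also gave 1 to 2 CDK inhibitors that fell, 0 to 1 E2F target genes that rose and 17 to 19 that fell.

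Removing genes below the 25th percentile or the median of signal, or using trend and robust options, added 1 higher gene for cyclin E, cyclin A and CDK2 (Cks1b) and 1 higher gene for CDK activation and cyclin turnover (Cdk7), and gave 2 CDK inhibitors that fell (with Cdkn2d). Repeated quantile normalization also gave 1 higher gene in the first of these lists and 2 CDK inhibitors that fell. Centring each array on its median gave 2 such inhibitors, and the mean of all probe sets gave 1 higher gene for CDK activation and cyclin turnover (Cdk7, at 0.20). With the filters and the trend and robust options, the differences stayed at 0.13 for Cks1b, −0.19 for Cdkn2d and 0.12 for Cdk7. There the adjusted p moved and the differences did not. The cause of the changes was not tested in any setting.

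Same-numbered WT and KO arrays did not deviate together (correlations of 0.00981, −0.117 and 0.0527), so the numbers were not taken as pairs. With the replicate block, 2 of the 10 genes rose and 3 fell, Rbl1 being lost (adjusted p = 0.051), 0 E2F target genes rose and 20 fell, and 1681 genes rose and 1764 fell over all.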

Other observations

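The cyclin and cyclin-dependent kinase genes other than the 10 genes were picked by their symbols after the values were seen. Some of them, such as Ccne1, Ccne2 and Cdk7, are also in the lists above and are counted again here. Of 21 measured cyclin genes, 1 rose and 4 fell (23.8% called by limma at an adjusted p under 0.05), and of 17 kinase genes 1 was called (5.88%), against 19.8% of all genes. Ccng1, a known p53 target, rose by 0.19 ± 0.043 (SE, limma adjusted p = 0.013). Besides Ccne1 and Ccne2, Ccnf, the founding F-box protein, fell by 0.21 ± 0.042 (SE, limma adjusted p = 0.0062), and Ccny, a membrane-bound cyclin, fell by 0.17 ± 0.040 (SE, limma adjusted p = 0.014). The kinase called was Cdk10, which fell by 0.28 ± 0.049 (SE, limma adjusted p = 0.0034).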
